A study of Homo sapiens with 6 samples.

Results

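The 47 genes described here are interferon-stimulated genes and the receptors, kinases, transcription factors, feedback inhibitors and RNA sensors of interferon signalling. They were chosen by name, and all 47 were found in the deposited table of 24580 gene rows. Interferons are cytokines that put cells into an antiviral state. Type I interferons bind a receptor of the chains IFNAR1 and IFNAR2, and interferon gamma binds one of IFNGR1 and IFNGR2. The Janus kinases JAK1, JAK2 and TYK2 then phosphorylate STAT proteins. STAT proteins bind, together with IRF9, the interferon-stimulated response element (ISRE) in the promoters of antiviral genes, and STAT dimers bind the gamma-activated site (GAS). In intestinal epithelium this system guards against viruses, and many of its genes are also transcribed at a low level without added interferon.

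RNA was sequenced from wild-type LoVo, an established human line of colorectal cancer cells, and from LoVo-HM, a subline of it that the labels call high-metastatic. Each group had 3 libraries, 6 in all, and no library had a treatment, so no interferon was added as far as the labels say. How the subline was obtained, and whether it is 1 clone, was not stated in the labels. These do not say that replicates were separate cultures, so p-values measure the spread between these libraries, which may be technical. Values are FPKM, the fragments of a gene relative to its transcript length and to library size, so that genes can be compared. Library totals were 434108 to 439082 FPKM for LoVo and 424624 to 428265 FPKM for the subline, and the read depth is unknown, so no counting error is given. The epithelial markers EPCAM, CDH1, KRT8, KRT18 and KRT19 summed to 2008 to 2063 FPKM in the LoVo libraries and 2599 to 2702 FPKM in those of LoVo-HM, but members of this list went opposite ways. The adhesion proteins EPCAM and CDH1 fell (-1.29 and -2.46), whereas the keratins KRT8, KRT18 and KRT19 rose (0.17, 0.65 and 1.88 in log2 units, all called by limma). Of the intestinal markers, CDX2 was present in all 6 libraries, VIL1 was listed at 0 in all of them, CDH17 reached at most 0.0361 FPKM and KRT20 was listed at 0 in LoVo and between 2.39 and 3.30 FPKM in LoVo-HM. The immune marker PTPRC and the plasmacytoid dendritic cell markers CLEC4C and LILRA4 were listed at 0 in every library, and no other immune marker exceeded 0.352 FPKM. The third dendritic marker, TCF4, which many cell types express, was at 3.44 to 4.12 FPKM in LoVo against 6.29 to 7.04 FPKM in LoVo-HM. The 6 fibroblast markers summed to 4.83 to 6.35 FPKM in LoVo against 4.85 to 5.72 FPKM in LoVo-HM, nearly all of it COL1A1, with COL1A2 at 0, and endothelial markers to at most 0.109 FPKM. Mitochondrially encoded genes made up 20.9 to 21.8% of the total in LoVo and 17.5 to 18.6% in LoVo-HM. What part the marker levels and this share have in the differences below was not tested, beyond a repeat of the fit without the mitochondrially encoded genes.

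Group levels are given as the mean and SD of 3 libraries. Differences are the LoVo-HM mean less the LoVo mean, with their SE, in units of log2(FPKM + 1), where low genes appear to differ less than they do. A gene was tested where its mean over the 6 libraries was at least 0.5 FPKM, and it is said to have risen or fallen where limma's p, adjusted by Benjamini and Hochberg over all 14487 tested genes, was under 0.05. A culture was measured in bulk, so fewer expressing cells and less RNA per cell cannot be told apart.

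Interferon genes differed in both directions between LoVo-HM and LoVo. The OAS enzymes, GBP1 and GBP3, the RNA sensors IFIH1 and DDX58, and IFI27 and IFI44 fell, the 3 IFITM membrane proteins and IFIT1 rose, and the abundant genes ISG15 and BST2 had log2 differences of -0.01 each. Of the 47 genes, 42 were tested, of which 4 rose, 19 fell and 19 did not pass the threshold. Over all tested genes, 21.8% were called higher, 23.1% lower and 44.9% in either direction. The median log2 difference was -0.19 over the tested members and 0.003 over all tested genes. A difference of at least 1 unit was called for 2 members upward and 6 downward. The shares over all tested genes were 2.37% and 4.18% (6.56% in either direction). On this scale 1 unit is more than 2-fold in FPKM, the more so for low genes. DDX58, GBP3, ISG20 and IRF2, which fell by less than 1 unit, had FPKM ratios of LoVo to LoVo-HM of 2.23, 2.20, 2.10 and 2.04. IFITM1 and IFIT1, which rose by less than 1 unit, had ratios of LoVo-HM to LoVo of 1.40 and 1.75. In 27 of the 42 tested members no LoVo library lay within the LoVo-HM range or the reverse, against 55% of all tested genes. No tested member reached the minimum through 1 group alone.

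**Figure D1:**
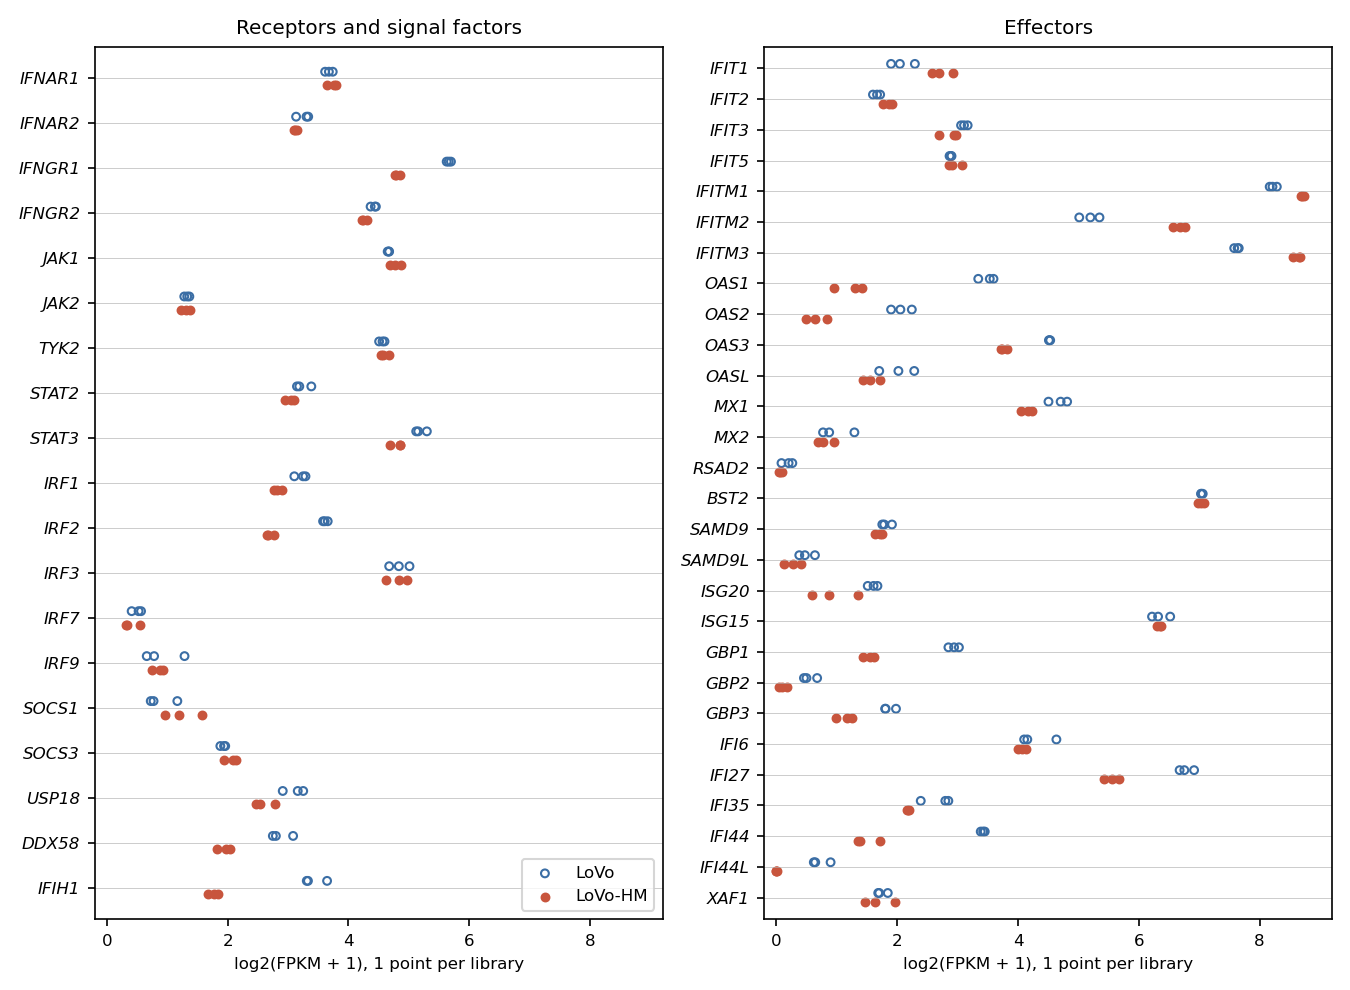
Level of each of the 47 genes in each library as log2(FPKM + 1), with receptors and signal factors on the left and effectors on the right, open circles for the 3 LoVo libraries and filled circles for the 3 LoVo-HM libraries. The IFITM rows are shifted to the right in LoVo-HM, the OAS, GBP, IFIH1 and IFI44 rows to the left, and the points of BST2 and ISG15 lie together.

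Most of the effectors with a known promoter window carry the letters of the ISRE core, those that rose and those that fell. RefSeq promoter windows (300 bases, 250 before and 50 after an annotated start, build GRCh38.p14) were found for 36 of the 47 genes. The entries for IFIT2, IFITM2, MX2, OAS2, OASL, IRF2, IRF3, IRF7, USP18, GBP2 and IFNAR2 were missing. The ISRE core was searched as GAAA, any 2 bases and GAAA again, on both strands, with overlapping matches counted. It was in a window of 20 of the 36 genes, 18 of 22 effectors and 2 of 14 receptors and signal factors (SOCS1 and IFIH1, both themselves induced by interferon), against 4.38% of the 27305 genes of the RefSeq table. Of the 20 genes with the core 3 rose, 8 fell, 7 did not pass and 2 were not tested. Of the 16 genes without it 0 rose, 7 fell, 8 did not pass and 1 was not tested. The median log2 difference of tested genes was -0.24 with the core and -0.16 without it. The GAS core TTCNNNGAA, which reads the same on both strands, was in a window of 9 of the 36 genes, against 9.38% of the genes of that table. Of these 9 genes 1 rose, 6 fell and 2 did not pass, with a median log2 difference of -0.50. Of the 27 genes without it 2 rose, 9 fell, 13 did not pass and 3 were not tested, with a median of -0.14. The shares over all tested genes were 21.8% higher, 23.1% lower and 44.9% in either direction. Whether genes with and without a core differ was not tested. The cores are matches of letters and not measured binding. A gene without a match, such as OAS1, may still hold an element of other spelling or spacing, or one outside the window. Stretches of 30 bases are shown for the called genes with a core upstream of a RefSeq start, and for ISG15 and BST2, which were added after their values were seen as abundant genes with a difference near 0. They read along the gene 5′ to 3′ with the core in capitals, and a core on the opposite strand shows TTTC in place of GAAA. The first 3 genes rose, the next 7 fell and the last pair did not pass the test.
IFITM1, chr11:313990-314019, plus strand: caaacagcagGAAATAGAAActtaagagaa
IFITM3, chr11:320885-320914, minus strand: agGAAAAGGAAActgttgaGAAACCGAAAc
IFIT1, chr10:89392503-89392532, plus strand: ttagTTTCACTTTCcccTTTCGGTTTCcct
OAS3, chr12:112938321-112938350, plus strand: agaaagaaacGAAACTGAAAgcagggaatt
GBP1, chr1:89065316-89065345, minus strand: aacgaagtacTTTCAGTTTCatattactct
IFI27, chr14:94110624-94110653, plus strand: gcagTTTCGGTTTCctgGAAAATGAAAcct
IFI44, chr1:78649759-78649788, plus strand: gggcacactgagTTTCAGTTTCctttctct
IFIH1, chr2:162318821-162318850, minus strand: aattcgcTTTCCTTTTCTGTTTCccgcggt
ISG20, chr15:88638937-88638966, plus strand: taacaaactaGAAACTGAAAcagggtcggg
MX1, chr21:41431844-41431873, plus strand: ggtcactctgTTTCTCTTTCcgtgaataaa
ISG15, chr1:1013377-1013406, plus strand: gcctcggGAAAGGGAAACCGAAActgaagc
BST2, chr19:17405738-17405767, minus strand: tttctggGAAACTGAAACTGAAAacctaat
The MX1 stretch belongs to the third of 3 annotated starts. In IFIT1 and IFITM3, which rose, and IFI27, which fell, a pair of cores lies within 1 stretch, and overlapping cores are present in IFIH1, which fell, and in ISG15 and BST2.

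**Figure D2:**
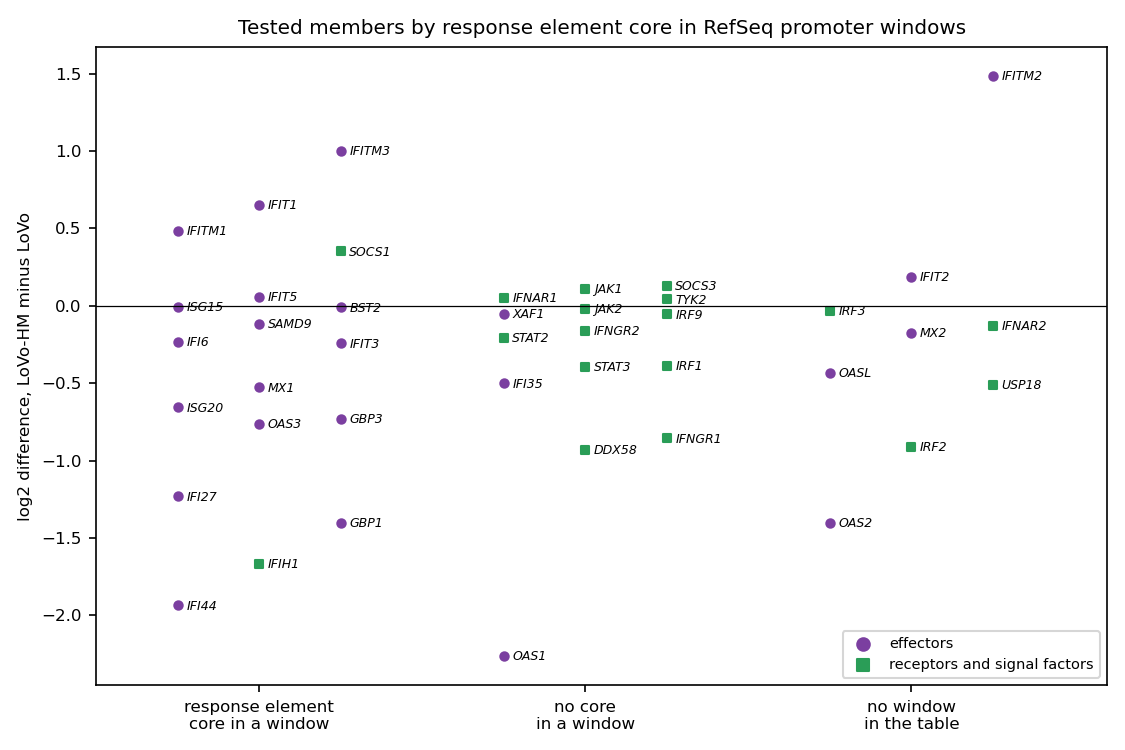
Log2 difference (LoVo-HM minus LoVo, log2(FPKM + 1) scale) of the 42 tested genes, separated by whether a RefSeq promoter window held the response element core, with circles for effectors and squares for receptors and signal factors. Genes with the core run from IFI44 at -1.94 to IFITM3 at 1.002, so both directions occur among them.

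Among the receptors the chains of the interferon gamma receptor fell, and those of the type I receptor did not pass the test. IFNGR1, the ligand-binding chain (ENSG00000027697, chromosome 6, 137197484 to 137219449), was at 48.4, 49.6 and 50.9 FPKM in the 3 LoVo libraries and 26.8, 26.2 and 27.8 FPKM in the 3 LoVo-HM libraries. The groups lay far apart, and IFNGR1 fell from 49.6 ± 1.24 to 26.9 ± 0.813 FPKM (-0.86 ± 0.048, adjusted p = 1.62e-06 by limma). IFNGR2, the accessory chain that brings in JAK2, was at 20.9, 20.6 and 19.6 FPKM in the LoVo libraries and 17.7, 18.8 and 17.999 FPKM in those of LoVo-HM. All LoVo-HM libraries were below all LoVo libraries by a narrow margin, and IFNGR2 fell (-0.16 ± 0.054, adjusted p = 0.0404 by limma), a call that was lost in 8 of 18 alternative settings (limma adjusted p up to 0.125), among them without LoVo replicate 1 or 2 and without LoVo-HM replicate 1 or 3. The ratio of IFNGR1 to IFNGR2 within a library was 2.31, 2.4002 and 2.59 in LoVo and 1.52, 1.396 and 1.55 in LoVo-HM, without overlap. IFNAR1 was at 11.8 ± 0.558 FPKM in LoVo against 12.3 ± 0.672 FPKM in LoVo-HM (0.05 ± 0.066, adjusted p = 0.549 by limma), with overlapping groups. IFNAR2 was at 8.58 ± 0.705 FPKM in LoVo against 7.73 ± 0.151 FPKM in LoVo-HM (-0.13 ± 0.074, adjusted p = 0.179 by limma), also with overlap. Its value is uncertain because 43.1% of the 50-base stretches of its coding transcripts are shared with other annotated genes.

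The kinases did not pass the test. JAK1, which serves both receptors, was at 24.1, 24.5 and 24.4 FPKM in the LoVo libraries and 26.1, 24.9 and 28.2 FPKM in those of LoVo-HM. The LoVo-HM libraries were all slightly higher (0.11 ± 0.057, adjusted p = 0.149 by limma, 95% interval -0.02 to 0.24). TYK2, the kinase on the IFNAR1 chain, was at 22.5 ± 0.731 FPKM in LoVo against 23.2 ± 1.196 FPKM in LoVo-HM (0.04 ± 0.057, adjusted p = 0.588 by limma, interval -0.09 to 0.17). JAK2, the kinase on IFNGR2, was the lowest of the 3 at 1.51 ± 0.07299 FPKM in LoVo against 1.47 ± 0.135 FPKM in LoVo-HM (-0.02 ± 0.094, adjusted p = 0.865 by limma, interval -0.24 to 0.19), and its sign turned with quantile normalization (0.05) and without LoVo-HM replicate 3 (0.02). The groups of TYK2 and of JAK2 overlapped. The intervals of the 3 kinases reach down to -0.24 log2 units for JAK2 and up to 0.24 for JAK1, and none reaches that far both ways.

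Of the 7 STAT and IRF transcription factors 3 fell, 3 did not pass and 1 was too low to test. IRF2, which binds the same element as IRF1 and can repress it (ENSG00000168310, chromosome 4, 184387713 to 184474580), was at 11.6, 10.96 and 11.2 FPKM in the 3 LoVo libraries and 5.39, 5.31 and 5.83 FPKM in the 3 LoVo-HM libraries. The LoVo-HM values were about level with each other and all far below those of LoVo, and IRF2 fell from 11.2 ± 0.329 to 5.51 ± 0.281 FPKM (-0.91 ± 0.066, adjusted p = 9.11e-06 by limma). IRF1, an activator induced by interferon gamma, was at 7.59, 8.502 and 8.77 FPKM in the LoVo libraries and 5.83, 6.01 and 6.46 FPKM in those of LoVo-HM. It fell without overlap (-0.39 ± 0.076, adjusted p = 0.00356 by limma). STAT3, which transmits signals of interleukin 6 and also of interferons, was at 38.3, 33.8 and 34.6 FPKM in the LoVo libraries and 24.9, 27.9 and 27.8 FPKM in those of LoVo-HM and fell without overlap (-0.39 ± 0.068, adjusted p = 0.00167 by limma). STAT2, the transactivating subunit of the type I complex, was at 9.44, 7.86 and 8.098 FPKM in the LoVo libraries and 7.52, 7.296 and 6.72 FPKM in those of LoVo-HM. Its groups did not overlap, but it did not pass the test (-0.21 ± 0.083, adjusted p = 0.0719 by limma, interval -0.40 to -0.02), and it was called lower only without mitochondrially encoded genes at an equal library total (limma adjusted p = 0.044). IRF9, the DNA-binding subunit of that complex, was low at 0.5795, 0.718 and 1.44 FPKM in the LoVo libraries and 0.681, 0.843 and 0.9001 FPKM in those of LoVo-HM, and LoVo replicate 3 stood above the other libraries. It did not pass (-0.06 ± 0.167, adjusted p = 0.807 by limma), the difference turned to 0.13 without LoVo replicate 3, and 82.7% of its 50-base stretches are shared with 1 other annotated gene, which makes its level uncertain. IRF3, which is activated by viral RNA and DNA sensors without new synthesis, was at 27.8 ± 3.35 FPKM in LoVo against 27.1 ± 3.35 FPKM in LoVo-HM with overlapping groups (-0.03 ± 0.106, adjusted p = 0.823 by limma), and its sign turned without LoVo replicate 3 (0.05) or without LoVo-HM replicate 3 (0.06). IRF7, which amplifies type I interferon production, was at most 0.479 FPKM in any library and was not tested.

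The feedback inhibitors differed from one another. USP18, the protease that removes ISG15 from proteins and blocks IFNAR2 signalling, was at 8.52, 6.52 and 7.94 FPKM in the LoVo libraries and 5.88, 4.505 and 4.82 FPKM in those of LoVo-HM. It fell without overlap (-0.51 ± 0.115, adjusted p = 0.00682 by limma), and 23.4% of its 50-base stretches are shared with other genes, nearly all with its copy USP41. SOCS1, an inhibitor of Janus kinases, was at 0.708, 1.24 and 0.654 FPKM in the LoVo libraries and 0.9405, 1.98 and 1.27 FPKM in those of LoVo-HM, with overlapping groups and a wide spread. It did not pass the test (0.35 ± 0.182, adjusted p = 0.15 by limma, interval -0.06 to 0.77). SOCS3, which binds the interleukin 6 receptor chain gp130, was at 2.7999 ± 0.1097 FPKM in LoVo against 3.17 ± 0.295 FPKM in LoVo-HM and did not pass either (0.13 ± 0.087, adjusted p = 0.258 by limma). It was called higher with quantile normalization (limma adjusted p = 0.0487).

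Both cytosolic sensors of viral RNA fell, and they are themselves induced by interferon. IFIH1, which encodes MDA5, the sensor of long double-stranded RNA (ENSG00000115267, chromosome 2, 162267079 to 162318703), was at 9.05, 8.91 and 11.5 FPKM in the 3 LoVo libraries and 2.4003, 2.19 and 2.58 FPKM in the 3 LoVo-HM libraries. The groups lay far apart, and IFIH1 fell from 9.83 ± 1.46 to 2.39 ± 0.196 FPKM (-1.67 ± 0.105, adjusted p = 3.8e-06 by limma). DDX58, which encodes RIG-I, the sensor of short RNA with a 5′ triphosphate (chromosome 9, 32455705 to 32526324), was at 5.95, 5.72 and 7.47 FPKM in the LoVo libraries and 3.09, 2.56 and 2.93 FPKM in those of LoVo-HM. It fell from 6.38 ± 0.954 to 2.86 ± 0.274 FPKM without overlap (-0.93 ± 0.108, adjusted p = 0.000167 by limma). The ratio of IFIH1 to DDX58 within a library was 1.52, 1.56 and 1.54 in LoVo and 0.777, 0.858 and 0.883 in LoVo-HM, so IFIH1 was the higher of the pair in each LoVo library and the lower in each LoVo-HM library.

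**Figure D3:**
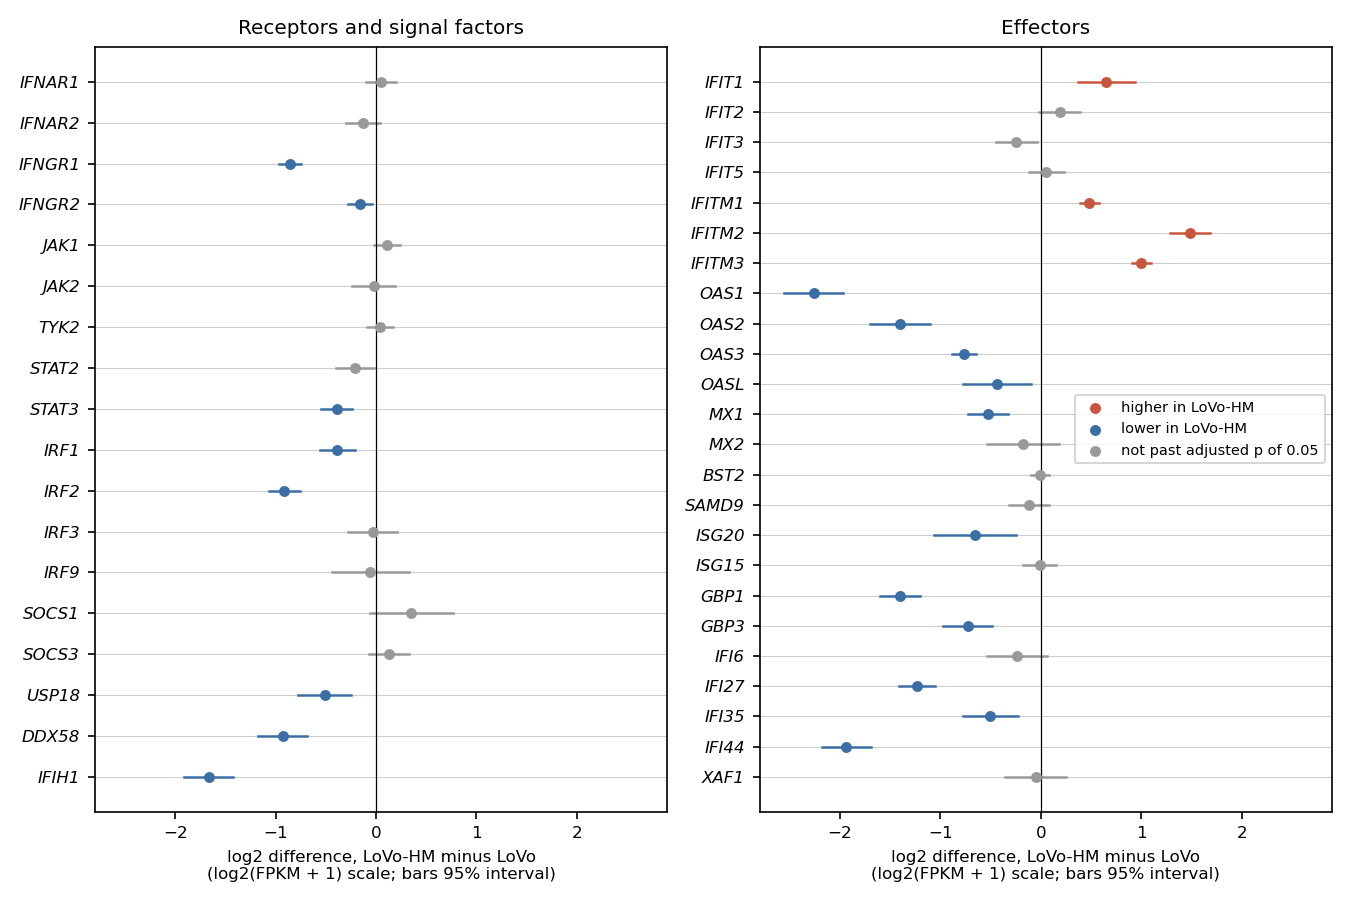
Log2 difference of each of the 42 tested genes, LoVo-HM minus LoVo on the log2(FPKM + 1) scale, with its 95% interval from limma, coloured by direction where the adjusted p was under 0.05. The receptors and kinases sit near 0 except IFNGR1 at -0.86, the 3 IFITM genes and IFIT1 lie to the right, and OAS1 at -2.26 lies farthest to the left.

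The IFITM genes, whose products sit in cell and endosome membranes and block virus entry, all rose. IFITM1 and IFITM3 were the most abundant effectors in both lines. They are neighbours on chromosome 11 (IFITM2 at 307631 to 315272, IFITM1 at 313506 to 315272 and IFITM3 at 319669 to 327537). IFITM1, found mostly at the cell surface, was at 287, 311 and 296 FPKM in the 3 LoVo libraries and 414, 425 and 409.5 FPKM in the 3 LoVo-HM libraries. Its groups did not overlap, and it rose from 298 ± 12.4 to 416 ± 8.22 FPKM (0.48 ± 0.041, adjusted p = 2.66e-05 by limma). IFITM3, found mostly in endosomes, was at 198, 201 and 190.4 FPKM in the LoVo libraries and 402, 405 and 377 FPKM in those of LoVo-HM. Every LoVo-HM library was well above every LoVo library (1.002 ± 0.043, adjusted p = 2.96e-07 by limma). IFITM2, also endosomal, was the lowest of the 3 at 35.7, 39.8 and 31.3 FPKM in the LoVo libraries and 108, 93.9 and 102 FPKM in those of LoVo-HM and differed most in proportion (1.48 ± 0.087, adjusted p = 2.29e-06 by limma). The ratio of IFITM2 to IFITM1 within a library was 0.125, 0.128 and 0.106 in LoVo and 0.261, 0.221 and 0.248 in LoVo-HM. These genes are close paralogs, with 32.9%, 35.3% and 16% of the 50-base stretches of IFITM1, IFITM2 and IFITM3 shared with other genes, and the annotated IFITM2 gene spans that of IFITM1, so the split between them is uncertain. The sum of the 3 was 521, 552 and 518 FPKM in the LoVo libraries against 923, 924 and 888 FPKM in LoVo-HM, without overlap.

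The IFIT genes, which bind foreign RNA and hinder its translation, lie side by side on chromosome 10. IFIT1 rose and the other 3 did not pass the test. IFIT1, which binds RNA lacking the methylated cap (ENSG00000185745, chromosome 10, 89392546 to 89406486), was at 3.13, 2.73 and 3.901 FPKM in the 3 LoVo libraries and 4.997, 6.57 and 5.46 FPKM in the 3 LoVo-HM libraries. It rose without overlap, from 3.25 ± 0.596 to 5.68 ± 0.809 FPKM (0.65 ± 0.125, adjusted p = 0.00297 by limma). IFIT3, which binds to IFIT1 and stabilises it, was at 7.33, 7.62 and 7.98 FPKM in the LoVo libraries and 5.47, 6.66 and 6.84 FPKM in those of LoVo-HM. Its LoVo-HM libraries were all lower, but IFIT3 missed the threshold (-0.24 ± 0.088, adjusted p = 0.0526 by limma) and was called lower in 5 of 18 alternative settings. The ratio of IFIT1 to IFIT3 within a library was 0.427, 0.358 and 0.489 in LoVo and 0.914, 0.987 and 0.798 in LoVo-HM, so the ratio was higher in every LoVo-HM library. IFIT2, a partner of both, was at 2.03, 2.29 and 2.18 FPKM in the LoVo libraries and 2.78, 2.395 and 2.63 FPKM in those of LoVo-HM, all LoVo-HM libraries being slightly higher. It did not pass the test (0.19 ± 0.088, adjusted p = 0.118 by limma) and was called higher with quantile normalization (limma adjusted p = 0.024). IFIT5, which also binds RNA with a 5′ triphosphate, was at 6.39 ± 0.0835 FPKM in LoVo against 6.697 ± 0.612 FPKM in LoVo-HM with overlap (0.06 ± 0.077, adjusted p = 0.584 by limma), and its sign turned without LoVo-HM replicate 3 (-0.01).

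The 4 genes of the OAS family, the enzymes that sense double-stranded RNA and activate RNase L, all fell, though OASL only narrowly. OAS1, OAS3 and OAS2 follow each other on chromosome 12, between 112906777 and 113011723, and OASL lies farther along at 121019111 to 121039242. OAS1 (ENSG00000089127) was at 11.1, 9.15 and 10.6 FPKM in the 3 LoVo libraries and 1.68, 1.46 and 0.946 FPKM in the 3 LoVo-HM libraries. It had the largest decrease of the 42 tested members (-2.26 ± 0.129, adjusted p = 1.95e-06 by limma), and no LoVo-HM library came near the LoVo values. OAS2 was at 2.73, 3.15 and 3.73 FPKM in the LoVo libraries and 0.563, 0.411 and 0.795 FPKM in those of LoVo-HM, again without overlap (-1.40 ± 0.130, adjusted p = 4.25e-05 by limma). OAS3, the most abundant of the family and the one with 3 OAS units in a chain, was at 22.2, 21.98 and 21.8 FPKM in the LoVo libraries and 12.2, 13.1 and 12.4 FPKM in those of LoVo-HM. Its LoVo libraries were very close to each other, and it fell from 21.99 ± 0.165 to 12.5 ± 0.457 FPKM (-0.76 ± 0.053, adjusted p = 7.32e-06 by limma). OASL, which lacks enzymatic activity and enhances RIG-I signalling, was at 2.26, 3.06 and 3.87 FPKM in the LoVo libraries and 2.27, 1.94 and 1.71 FPKM in those of LoVo-HM, where the lowest LoVo library (2.26) and the highest LoVo-HM library (2.27) overlap. It fell by the test (-0.43 ± 0.150, adjusted p = 0.043 by limma), but the call was lost in 9 of 18 alternative settings (limma adjusted p up to 0.129), among them leaving out LoVo replicate 2 or 3 or LoVo-HM replicate 2 or 3. The ratio of OAS1 to OAS3 within a library was 0.5001, 0.416 and 0.485 in LoVo and 0.138, 0.112 and 0.0763 in LoVo-HM.

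Among the other antiviral effectors MX1 and ISG20 fell and 4 did not pass. MX1, a dynamin-like GTPase against influenza and other viruses (ENSG00000157601, chromosome 21, 41420304 to 41459214), was at 25.1, 21.7 and 27.1 FPKM in the 3 LoVo libraries and 15.5, 17.04 and 17.7 FPKM in the 3 LoVo-HM libraries. It fell from 24.7 ± 2.74 to 16.8 ± 1.14 FPKM without overlap (-0.53 ± 0.087, adjusted p = 0.00129 by limma). Its paralog MX2, which acts against retroviruses, was at 0.833, 0.708 and 1.45 FPKM in the LoVo libraries and 0.703, 0.939 and 0.605 FPKM in those of LoVo-HM, with overlap (-0.18 ± 0.155, adjusted p = 0.387 by limma). ISG20, an exonuclease for single-stranded RNA, was at 1.85, 2.05 and 2.19 FPKM in the LoVo libraries and 0.831, 1.56 and 0.513 FPKM in those of LoVo-HM, with a wide spread in LoVo-HM. It fell (-0.66 ± 0.179, adjusted p = 0.0165 by limma), and the call was lost without LoVo replicate 3 or without LoVo-HM replicate 1 (limma adjusted p up to 0.0514). ISG15, the ubiquitin-like protein that is attached to new viral and host proteins (chromosome 1, 1001138 to 1014540), was at 90.8, 78.9 and 73.6 FPKM in the LoVo libraries and 81.9, 80.7 and 78.2 FPKM in those of LoVo-HM. Its LoVo libraries bracketed those of LoVo-HM (-0.01 ± 0.072, adjusted p = 0.929 by limma, interval -0.17 to 0.16), and the sign turned in 3 alternative settings (0.01 to 0.07). BST2, the tetherin that holds budding virions at the membrane (chromosome 19, 17402939 to 17405648), was at 130.3, 132 and 129.8 FPKM in the LoVo libraries and 134, 130.4 and 125 FPKM in those of LoVo-HM, with all libraries close together (-0.01 ± 0.040, adjusted p = 0.85 by limma, interval -0.10 to 0.08), and its sign turned in a pair of settings (0.02 with equal library totals and 0.01 without LoVo-HM replicate 3). SAMD9, an inhibitor of poxviruses, was at 2.45, 2.37 and 2.77 FPKM in the LoVo libraries and 2.35, 2.11 and 2.28 FPKM in those of LoVo-HM, with all LoVo-HM libraries lower by little (-0.12 ± 0.089, adjusted p = 0.31 by limma).

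The guanylate-binding proteins, GTPases that are typical targets of interferon gamma and attack vacuoles of intracellular pathogens, were lower in LoVo-HM. GBP1 (ENSG00000117228, chromosome 1, 89052319 to 89065360) was at 7.13, 6.204 and 6.69 FPKM in the 3 LoVo libraries and 2.08, 1.71 and 1.93 FPKM in the 3 LoVo-HM libraries. No LoVo-HM library came near the LoVo values, and GBP1 fell from 6.67 ± 0.461 to 1.91 ± 0.189 FPKM (-1.40 ± 0.088, adjusted p = 3.56e-06 by limma). GBP3 was at 2.95, 2.502 and 2.49 FPKM in the LoVo libraries and 0.982, 1.25 and 1.37 FPKM in those of LoVo-HM and fell without overlap (-0.73 ± 0.107, adjusted p = 0.000665 by limma). GBP2 was below the minimum for testing, at 0.372, 0.412 and 0.596 FPKM in the LoVo libraries and 0.0271, 0.063003 and 0.132 FPKM in those of LoVo-HM, and in a fit without the minimum it was called lower (-0.44, limma adjusted p = 0.00602). Of the 50-base stretches of GBP1, 13.3% are shared with other genes, mostly with a pseudogene copy of it.

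The remaining effectors are interferon-induced genes with less settled functions. IFI27, a small mitochondrial and nuclear membrane protein (ENSG00000165949, chromosome 14, 94104836 to 94116698), was at 107, 101 and 119.8 FPKM in the 3 LoVo libraries and 50.1, 46.04 and 41.9 FPKM in the 3 LoVo-HM libraries. It fell from 109 ± 9.47 to 46.02 ± 4.13 FPKM, the largest loss in FPKM among the effectors, with no overlap (-1.23 ± 0.080, adjusted p = 4.43e-06 by limma). IFI44, a cytoplasmic protein that associates with microtubules (ENSG00000137965, chromosome 1, 78649796 to 78664078), was at 9.73, 9.44 and 9.93 FPKM in the LoVo libraries and 1.596, 2.29 and 1.56 FPKM in those of LoVo-HM and fell without overlap (-1.94 ± 0.106, adjusted p = 1.53e-06 by limma). Its neighbour IFI44L was at 0.562, 0.537 and 0.863 FPKM in the LoVo libraries and 0, 0 and 0.0104 FPKM in those of LoVo-HM, below the minimum for testing. In a fit without the minimum it was called lower (-0.72, limma adjusted p = 0.0013). IFI35, which pairs with NMI, was at 4.24, 6.197 and 5.95 FPKM in the LoVo libraries and 3.48, 3.51 and 3.57 FPKM in those of LoVo-HM and fell (-0.50 ± 0.121, adjusted p = 0.00949 by limma). IFI6, a mitochondrial protein related to IFI27, was at 16.2, 16.8 and 23.9 FPKM in the LoVo libraries and 15.7, 16.6 and 14.9 FPKM in those of LoVo-HM, with LoVo replicate 3 above the other 5 libraries. IFI6 did not pass (-0.23 ± 0.130, adjusted p = 0.175 by limma), nor did XAF1, a promoter of apoptosis, at 2.35 ± 0.205 FPKM in LoVo against 2.27 ± 0.595 FPKM in LoVo-HM (-0.05 ± 0.134, adjusted p = 0.778 by limma). The sign of XAF1 turned with quantile normalization (0.05) and without LoVo-HM replicate 1 (0.06).

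Besides IRF7, GBP2 and IFI44L, 2 further members were too low to test. RSAD2, which encodes viperin, a radical SAM enzyme that makes a chain-terminating nucleotide, was at 0.151, 0.0605 and 0.201 FPKM in the LoVo libraries and 0.0406, 0.06595 and 0.0281 FPKM in those of LoVo-HM. SAMD9L, the paralog of SAMD9, was at 0.387, 0.301 and 0.557 FPKM in the LoVo libraries and 0.3204, 0.215 and 0.09004 FPKM in those of LoVo-HM. Groups overlapped for both. Without the minimum, RSAD2, SAMD9L and IRF7 were not called (limma adjusted p = 0.154, 0.137 and 0.404).

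Receptors and signal factors were set beside effectors as the rule of choice asks. Of 19 receptors and signal factors 18 were tested, with 0 higher, 8 lower and 10 not past the threshold by limma, and the median log2 difference was -0.15. That is 44.4% called, near the 44.9% of all tested genes. At an unadjusted p under 0.05, 0 of the 18 were higher. Of 28 effectors 24 were tested, with 4 higher, 11 lower and 9 not past the threshold, which is 62.5% called, and the median was -0.24. Log2 differences ran from -1.67 (IFIH1) to 0.35 (SOCS1) among the former and from -2.26 (OAS1) to 1.48 (IFITM2) among the latter. Which side the interferon-induced USP18, DDX58 and IFIH1 are counted on moved these medians. With them among the effectors, the medians were -0.06 and -0.43, and 5 of 15 receptors and signal factors fell. With a minimum mean of 2 FPKM the order turned, with medians of -0.21 for receptors and signal factors and -0.18 for effectors. Without LoVo replicate 3 the medians were -0.140 and -0.145. These are descriptions of the named genes, and the difference between the sides was not tested.

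**Figure D4:**
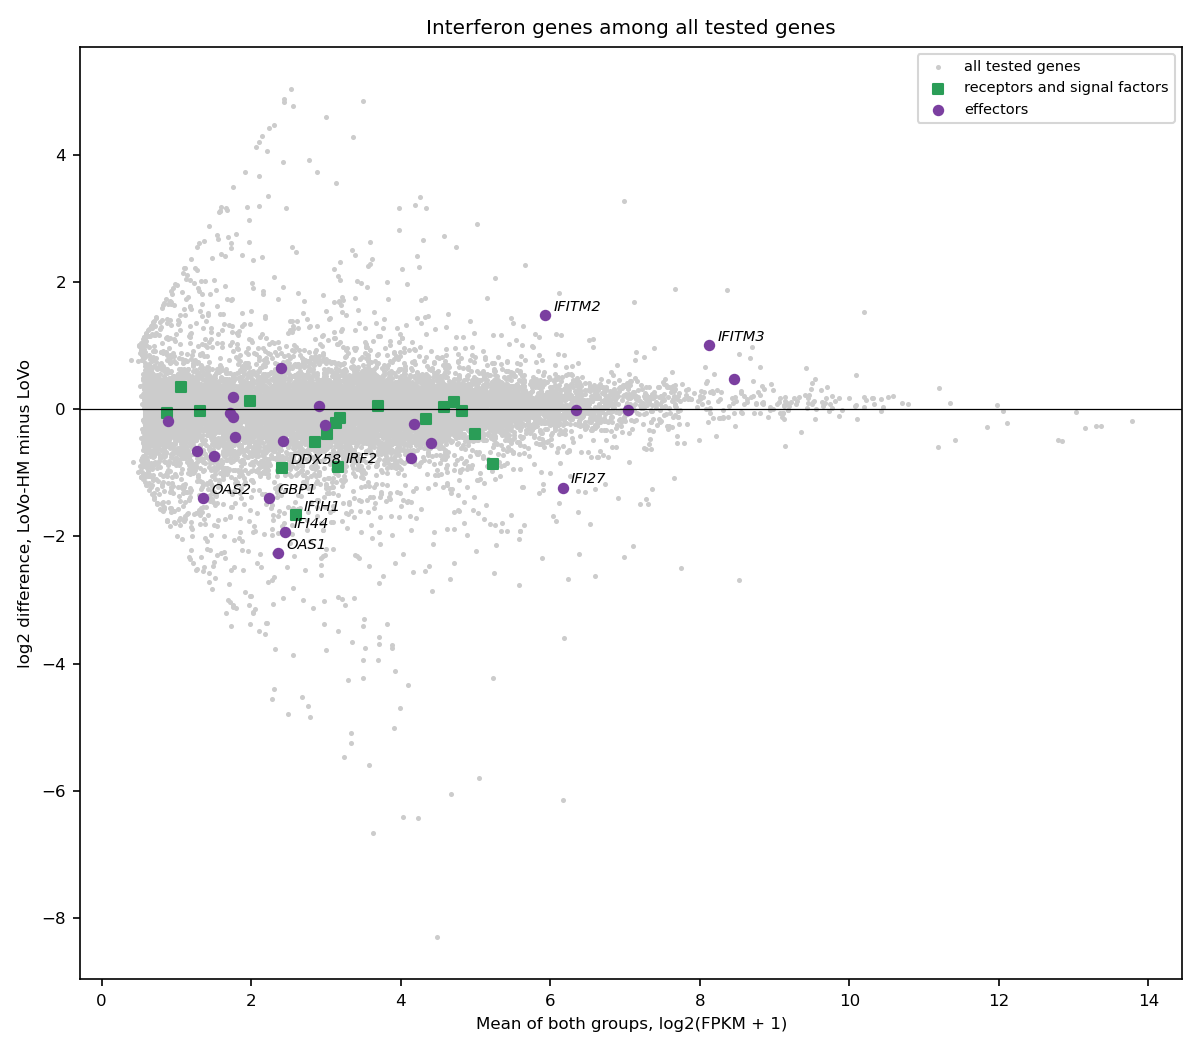
Log2 difference (LoVo-HM minus LoVo) against the mean log2(FPKM + 1) of both groups for the 14487 tested genes in grey, with receptors and signal factors as squares and effectors as circles. Members with a difference beyond 0.9 in size are named, and all lie inside the range of the other genes.

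Summed over the 28 effectors, the level was higher in LoVo-HM with the IFITM genes and lower without them. The sum was 980.2, 992 and 988 FPKM in the LoVo libraries against 1271, 1270 and 1218 FPKM in LoVo-HM. IFITM1, IFITM2 and IFITM3 made up 53.7% of it in LoVo and 72.8% in LoVo-HM. Without them the sum of the other 25 effectors was 459.7, 440.5 and 471 FPKM in the LoVo libraries against 348, 346 and 331 FPKM in LoVo-HM, lower in every LoVo-HM library. Leaving out ISG15 and BST2 too, it was 239, 229 and 267 FPKM in the LoVo libraries against 132, 135 and 127 FPKM in LoVo-HM. The ratio of IFITM3 to ISG15 within a library was 2.18, 2.54 and 2.59 in LoVo and 4.901, 5.02 and 4.81 in LoVo-HM. Exact two-sided permutation tests of the 6 ratios given here each gave p = 0.1 (0.1 after Benjamini-Hochberg adjustment over the 6), the smallest p that 3 libraries against 3 allow. The ratios were not planned and pair genes whose own differences are unlike. Their separation therefore adds no support to the differences of the single genes.

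**Figure D5:**
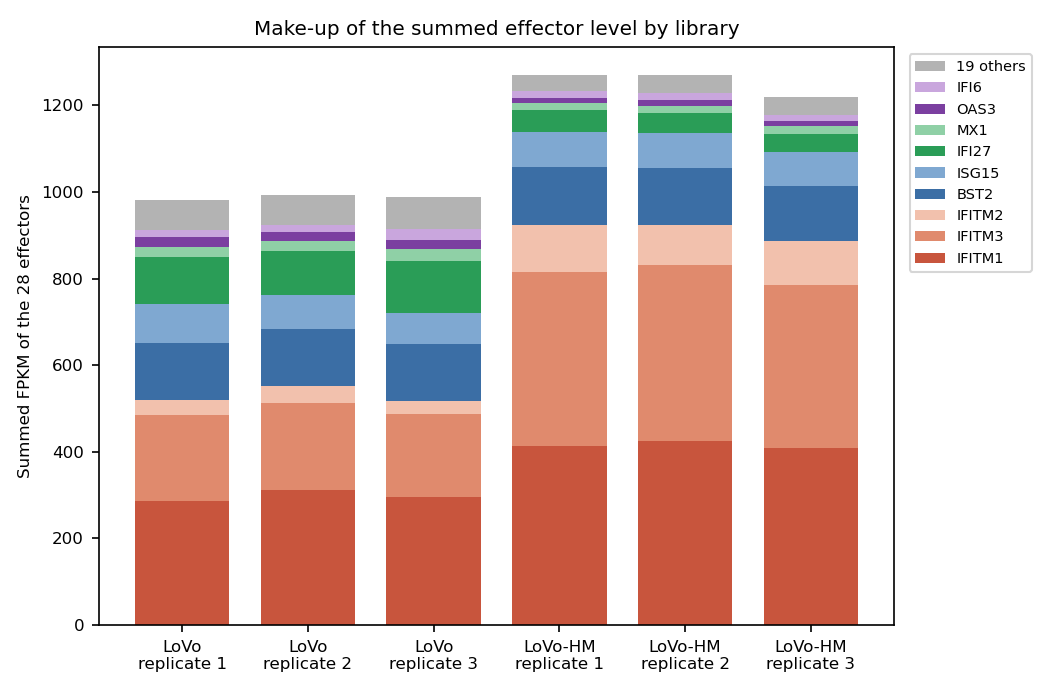
Summed FPKM of the 28 effectors in each of the 6 libraries, stacked by gene, with 19 of the genes pooled at the top. The IFITM segments grow from about 530 FPKM in LoVo to about 912 FPKM in LoVo-HM, the BST2 and ISG15 segments are alike, and the segments above them shrink.

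Other genes of the pathway were counted in the same fit. They were listed from general knowledge and not for how they moved, but with earlier results of these data known. Of 84 listed genes 66 were tested, of which 3 rose, 38 fell and 25 did not pass, with a median log2 difference of -0.33. That is 62.1% called, against 21.8% higher, 23.1% lower and 44.9% in either direction over all tested genes. Among those that fell, IFI16, TNFSF10, CMPK2 and CD274 reached the minimum through LoVo alone and so had to differ. Of the 8 interferon genes themselves (IFNA1, IFNB1, IFNG, IFNE, IFNK, IFNL1, IFNL2 and IFNL3), 7 were listed at 0 in all 6 libraries and IFNE reached at most 0.0850 FPKM. Both other receptor chains, IFNLR1 and IL10RB of the interferon lambda receptor, fell (-0.45 and -0.38). Of 7 tested signal factors 6 fell and 1 did not pass, and of 7 negative regulators 2 rose, 1 fell and 4 did not pass. Among 10 tested genes of sensing upstream of interferon 5 fell and 5 did not pass, and among 40 other interferon-stimulated genes 1 rose, 24 fell and 15 did not pass.

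Of the genes in that list called with a difference of at least 1, 5 are described, all of them lower. IFI16, a nuclear DNA sensor of the HIN200 family (ENSG00000163565, chromosome 1, 158999968 to 159055155), was at 20.9, 21.2 and 22.99 FPKM in the 3 LoVo libraries and 0.0516, 0.0675 and 0.117 FPKM in the 3 LoVo-HM libraries. It fell from 21.7 ± 1.12 to 0.0787 ± 0.03403 FPKM (-4.40 ± 0.078, adjusted p = 1.71e-09 by limma), and it reached the minimum for testing through LoVo alone. APOL1, a lipoprotein that lyses trypanosomes, fell from 9.997 ± 0.843 to 2.51 ± 0.197 FPKM (-1.64 ± 0.085, adjusted p = 1.05e-06 by limma). TNFSF10, which encodes the death ligand TRAIL, fell from 2.48 ± 0.2105 to 0.181 ± 0.0554 FPKM (-1.56 ± 0.103, adjusted p = 4.93e-06 by limma), and likewise reached the minimum through LoVo alone. PTPN6, the phosphatase SHP-1, fell from 15.2 ± 0.774 to 7.11 ± 0.687 FPKM (-1.002 ± 0.079, adjusted p = 1.62e-05 by limma). IKBKE, a kinase that activates IRF3, fell from 5.11 ± 0.684 to 2.04 ± 0.164 FPKM (-1.004 ± 0.103, adjusted p = 7.99e-05 by limma). The groups of these 5 genes did not overlap, as in 55% of all tested genes. That adds no support, because they were chosen for a called difference of at least 1. The 3 that rose (PTPN1, SOCS2 and APOBEC3G, named after their values were seen) had differences of 0.28 to 0.32.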

How the data were processed

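RNA from LoVo and LoVo-HM cultures was made into TruSeq libraries, per the labels. The authors deposited 1 table of FPKM values per gene and library (6 columns). Reads were placed on GRCh38, per the submitters' processing notes, and nothing used here states which aligner, counter or strand setting served. No read counts could be recovered: in 1554 genes with low values the commonest step held 3.35% of them, so depth and counting error are unknown. The FPKM values as deposited were analysed as log2(FPKM + 1) with limma 3.58.1 (R 4.3.3, trended variance, two-sided, Benjamini-Hochberg over genes whose mean reached 0.5 FPKM), checked first on simulated data. FPKM are relative to a library's total, so a large change in a few abundant genes moves the others. Ratios were tested with exact permutation (scipy 1.17.1). The members and all lists were chosen with earlier results of these data known. All members are named, and of the other pathway genes those called with a log2 difference of at least 1, apart from items that are not reported here. Gene positions are those of GENCODE 29 (GRCh38), and DDX58 is listed as RIGI by RefSeq. Shared stretches are distinct runs of 50 bases in a gene's GENCODE transcripts that also occur in transcripts of another gene. Protein sequences of the IFITM genes were not analysed here. Alternatives were other pseudocounts, minimums, scalings and variance fits, each library left out, the replicate number as a block and another split of roles.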

Additional observations from a re-analysis of the deposited data

How the results depend on the processing

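The limma fit was repeated in 18 alternative settings, 16 planned and 2 added after seeing the data. The added ones left out mitochondrially encoded genes, or gene models that lack a symbol. Of the 23 called interferon genes, 20 kept their call and direction in every setting that tested them. IFNGR2, OASL and ISG20 lost theirs in some settings, and STAT2, SOCS1, SOCS3, IFIT2 and IFIT3 were called in some. Of the 20, OAS2 and GBP3 were below the minimum mean of 2 FPKM and so were not tested in that setting. Leaving out each library in turn gave 4 higher and 17 to 18 lower interferon genes. Over all 14487 tested genes, these fits gave 2565 to 2861 higher and 2915 to 3122 lower, against 3161 and 3347 in the main fit. The medians were then -0.17 to -0.13 for receptors and signal factors and -0.30 to -0.15 for effectors. With a minimum mean of 2 FPKM these medians were -0.209 and -0.177. The number of genes called with a log2 difference of at least 1 was 1528 with a pseudocount of 0.1, against 950 with 1. Receptors and signal factors called higher numbered 1 with quantile normalization (SOCS3) and 1 with the replicate number as a block (SOCS1, adjusted p = 0.0471 by limma). With USP18, DDX58 and IFIH1 as effectors, the medians were -0.0561 and -0.435, with 5 signal factors lower. The median of the other pathway genes was -0.368 with a pseudocount of 0.1, -0.236 with a minimum mean of 2 FPKM, -0.274 with quantile normalization (5 higher) and -0.379 to -0.297 with 1 library left out. Uncalled differences that turned sign, again uncalled, were those of JAK2 (0.0539 with quantile normalization, -0.0596 to 0.0191 with 1 library left out), IRF3 (-0.115 to 0.0606 likewise), IRF9 (-0.181 to 0.132), IFIT5 (-0.0075 to 0.1001), BST2 (0.0219 with equal totals, -0.0326 to 0.0142 with 1 library left out), ISG15 (0.0231 and -0.0759 to 0.0743 likewise) and XAF1 (0.0528 with quantile normalization, -0.191 to 0.0617 with 1 library left out). The cause was not tested. Same-numbered libraries had correlations of -0.007, 0.0215 and 0.0264 of their deviations, and only LoVo-HM replicate 3 correlated best with its own number. No shift shared by number was visible, which cannot show whether such libraries were prepared together. The replicate block gave 5 higher and 18 lower interferon genes. Without read depth, genes near the minimum have an unknown counting error.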

Other observations

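Of the 84 other pathway genes, 18 lay below the minimum mean of 0.5 FPKM over the 6 libraries. A limma fit without that minimum called 4 of these lower in LoVo-HM. It did not call CXCL11 (adjusted p = 0.0541), whose groups did not overlap. Nor did it call IFNE, IRF4, IRF8 and HERC5 (limma adjusted p = 0.208, 0.961, 0.603 and 0.886). The rest of the 18 were listed at 0 in all 6 libraries. Whether the share called differs from that over all genes in this fit was not tested. CXCL10, a chemokine that attracts T cells, was at 0.576 ± 0.265 FPKM in LoVo against 0.0699 ± 0.121 FPKM in LoVo-HM. LGALS9, which encodes galectin-9, was at 0.669 ± 0.181 FPKM in LoVo against 0.101 ± 0.0316 FPKM in LoVo-HM. GBP4, of the guanylate-binding proteins, was at 0.645 ± 0.234 FPKM in LoVo against 0.1296 ± 0.0571 FPKM in LoVo-HM. BATF2, a transcription factor induced by interferon gamma, was at 0.5597 ± 0.159 FPKM in LoVo against 0.234 ± 0.0882 FPKM in LoVo-HM. The groups of these 4 genes did not overlap (n = 3 each), and a limma fit without the minimum called them all lower (adjusted p = 0.0295, 0.00332, 0.0119 and 0.0416). They were named after their values were seen, because that fit called them, so neither the call nor the lack of overlap adds support. Groups did not overlap in 55% of all tested genes. The read depth behind such low values is unknown. GBP5 and the nucleic acid sensor ZBP1 were listed at 0 in all 6 libraries.

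Genes beside the interferon genes were counted in the same fit. Within 100 kb of a member lay 131 other tested genes, of which 22 rose, 32 fell and 77 did not pass, with a median log2 difference of 0.02. That is 41.2% called, against 44.9% of all tested genes. The examples that follow were chosen after their values were seen. CMPK2, a nucleotide kinase that is also induced by interferon and overlaps RSAD2, fell from 1.41 to 0.357 FPKM (-0.83, adjusted p = 0.00093 by limma), and it reached the minimum for testing through LoVo alone. STAT5A, next to STAT3, fell from 17.5 to 9.14 FPKM (-0.87, adjusted p = 2.5e-05 by limma). GCA, 137 bases from IFIH1, fell from 13.5 to 7.34 FPKM (-0.79, adjusted p = 0.000117 by limma). PPP4R4, near IFI27, fell from 5.23 to 2.32 FPKM (-0.91, adjusted p = 2.67e-05 by limma), whereas IFI27L2, a relative of IFI27 also near it, rose from 5.14 to 9.55 FPKM (0.79, adjusted p = 0.000407 by limma). Around the IFITM genes PGGHG rose from 7.08 to 11.8 FPKM (0.67, adjusted p = 0.00106 by limma) and B4GALNT4 rose from 22.2 to 31.8 FPKM (0.49, adjusted p = 0.000436 by limma), whereas SIGIRR fell from 10.2 to 7.62 FPKM (-0.38, adjusted p = 0.00388 by limma).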
